A study of Mus musculus with 4 samples.

Results

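Genes of the SIX-, EYA- and DACH-families encode a small set of interacting nuclear proteins, and 8 of them were followed here in 4T07 cells, a mouse mammary carcinoma line. The 8 genes were Six2, Six4, Six5, Eya1, Eya2, Eya3, Eya4 and Dach1, taken by symbol from a table of 24421 genes. Polyadenylated RNA had been sequenced from 4 libraries. In 2 of them the cells carried the genotype label control, and in the other 2 the label Six2 Overexpression. All cells shared the line, the Balb/cfC3H strain and the culture medium, and were lysed 48 h after plating with no treatment stated. How Six2 was introduced, and whether the cells labelled Six2 are 1 clone or a mixture, is not given in the sources used here. Values are RPKM, reads per kilobase of gene scaled to the library's read total, so levels can be compared between genes as far as the authors' gene lengths hold.

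SIX-family proteins are homeodomain transcription factors that bind DNA through a homeodomain and an adjoining SIX-type domain. Most activate genes poorly alone and recruit an EYA protein, which supplies a transactivation region and carries a phosphatase domain of the haloacid dehalogenase type. DACH proteins act as corepressors in the same complexes. Six2 is best known for keeping nephron progenitors of the fetal kidney undifferentiated, and Eya1 for its part in kidney, ear and branchial arch formation.

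A set of 3 upstream windows is shown because it belongs to Six2, the gene named in the labels, and to Six4 and Six5, which were expressed and whose levels in the groups lay in opposite directions. Each covers 200 bases, from 250 to 51 bases before a RefSeq transcript start, read 5′ to 3′ along the gene in GRCm38.p6. Capitals mark GGGCGG (a GC box) and CCAAT on either strand.
Six2, chr17:85688305-85688504, minus strand: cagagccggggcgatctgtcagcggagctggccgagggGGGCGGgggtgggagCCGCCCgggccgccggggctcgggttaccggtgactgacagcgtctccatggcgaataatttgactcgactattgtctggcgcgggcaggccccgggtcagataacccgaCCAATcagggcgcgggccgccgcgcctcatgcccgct
Six4, chr12:73113476-73113675, minus strand: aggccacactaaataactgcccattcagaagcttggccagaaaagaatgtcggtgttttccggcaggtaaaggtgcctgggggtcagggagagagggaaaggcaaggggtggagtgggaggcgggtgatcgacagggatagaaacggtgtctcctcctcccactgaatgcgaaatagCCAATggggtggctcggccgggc
Six5, chr7:19094294-19094493, plus strand: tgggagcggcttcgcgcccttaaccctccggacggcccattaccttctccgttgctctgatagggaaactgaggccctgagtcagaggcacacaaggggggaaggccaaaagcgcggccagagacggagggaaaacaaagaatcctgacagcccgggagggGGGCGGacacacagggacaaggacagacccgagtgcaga

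The windows of Six2, Six4 and Six5 held 71.0%, 57.5% and 62.0% G and C, against a median of 51.5% over the 32851 RefSeq windows of the same length. A GC box occurred in 24.6% of all windows and CCAAT in 28.4%. Neither the MEF3 element TCAGGTTTC, a sequence that SIX-family proteins bind, nor the shorter SIX-binding core TGATAC nor the TATA box TATAAA was in the 3 windows. Over all windows these were present in 0.31%, 3.88% and 9.14%. A second RefSeq start of Six4 lies downstream, and the window before it held 1 MEF3 match, at chr12:73113336-73113344, inside the 5′ untranslated part of exon 1 in GENCODE M21. The 30 bases around it are shown with the match in capitals, which reads against the direction of the gene, so that the element appears as its reverse complement.
Six4 MEF3 match, chr12:73113325-73113354, minus strand: tggcctggggGAAACCTGAtcggccagatc

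RefSeq windows were matched for 6 of the 8 genes, without an entry for Eya1 and Eya2. A match of letters is a description and no evidence of binding.

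The comparison asked how the partners and paralogs of Six2 stood in cells labelled as overexpressing it. Six2 itself (ENSMUSG00000024134.11, chromosome 17, 85684277 to 85688274) had 3 reads in Six2 replicate 1, or 0.0285 RPKM, and no other library held a read of it. The exact Poisson 95% interval of that value is 0.00588 to 0.0833 RPKM. For the libraries at 0, a count of 3 reads corresponds to 0.033 RPKM in control replicate 1, 0.034 in control replicate 2 and 0.0175 in Six2 replicate 2. The values therefore do not show the overexpression named in the labels, and how reads from an introduced coding sequence were treated is not given in the sources used here. Below, higher and lower refer to the libraries labelled Six2 relative to the controls.

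Across the table, read totals ran from 41881864 to 81524250 and were highest in Six2 replicate 2, so low values are most precise there. Limma-trend called 12 of 10654 genes tested (0.113%) at an adjusted p under 0.05. Leaving out control replicate 2 gave 31 calls, leaving out Six2 replicate 1 gave 35, and leaving out Six2 replicate 2 gave 68. The keratin genes Krt8 and Krt18 of simple epithelium were at 389 to 1059 RPKM in every library. The mesenchymal marker Vim was also high, at 1300 and 1553 RPKM in the controls and 1427 and 1524 RPKM in the others (log2 difference 0.05). The epithelial surface gene Epcam was low, at 0.720 and 0.684 RPKM in the controls and 0.214 and 0.0833 RPKM in the others. Cdh1, the E-cadherin gene of epithelial junctions, was at 14.6 and 8.40 RPKM in the controls and 0.186 and 0.103 RPKM in the others. The part of this epithelial difference in the values below was not tested. Of the fibroblast markers, Dcn had 29 to 60 reads and Col1a1 5 to 22. Ptprc of leukocytes had at most 2 reads, Pecam1 and Cdh5 of endothelium at most 13 and 6, and the adult globin gene Hba-a1 had 0 in each. Nothing in the labels says that replicates are separate cultures, so each p-value sets the groups against the spread of these libraries alone, which may be technical. In bulk RNA, fewer cells expressing a gene and less of its RNA per cell cannot be told apart.

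Of the 8 genes, 5 reached 1 RPKM in 2 or more libraries and were tested, and 3 (Six2, Eya4 and Dach1) were not. None of the 5 passed with limma-trend and Benjamini-Hochberg adjustment over all genes, and none passed with voom on recovered reads. At an unadjusted p under 0.05 there were 4 of the 5, where 17.0% of all genes tested were. The same 4 had groups that did not overlap, 2 higher and 2 lower, against 47.4% of all genes tested. Eya1 entered the test only through the libraries labelled Six2, both controls lying below 1 RPKM, so its separation was fixed by the filter and lends these counts no support.

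**Figure D1:**
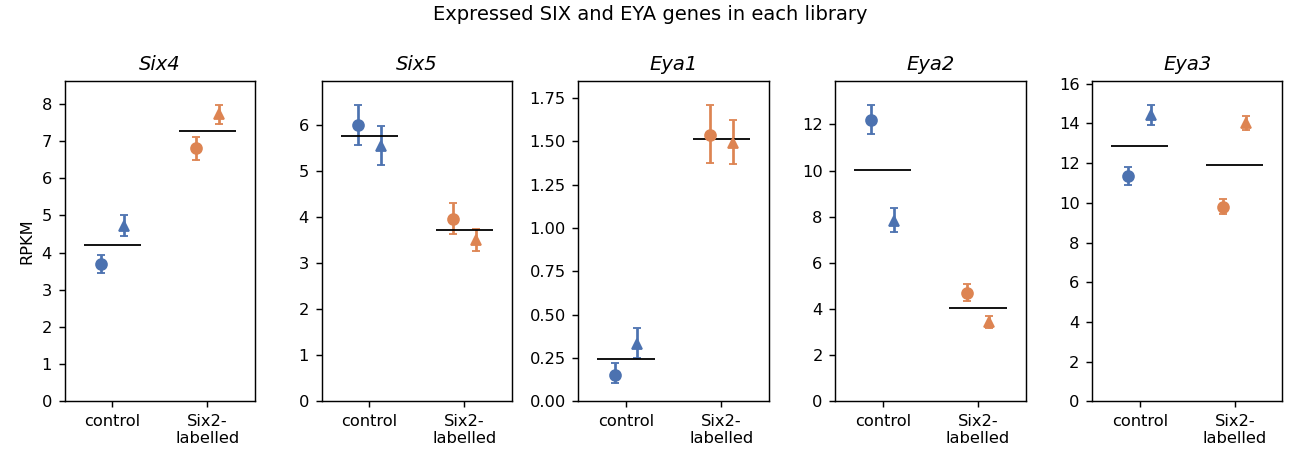
RPKM of the 5 expressed genes in each library (vertical axis, starting at 0, own scale per gene), circles for replicate 1 and triangles for replicate 2, with exact Poisson 95% intervals from the read counts and black lines at the group means of 2 libraries. Six4 and Eya1 lie higher and Six5 and Eya2 lower in both libraries labelled Six2, and the groups of Eya3 overlap.

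Among the SIX-family genes, Six4 (ENSMUSG00000034460.9, chromosome 12, 73099609 to 73113456), a homeodomain factor of muscle and sensory development, was at 3.68 and 4.72 RPKM in control replicates 1 and 2. It was at 6.80 and 7.71 RPKM in Six2 replicates 1 and 2, from 885, 1101, 1890 and 3503 reads. Both libraries labelled Six2 lay above both controls. The group means were 4.20 ± 0.731 and 7.25 ± 0.647 RPKM (SD, n = 2 per group), a ratio of 1.73. On the log2(RPKM + 1) scale the difference was 0.67 (SE 0.15), and the limma-trend adjusted p was 0.169. It was 0.42 with chromosome medians removed (limma-trend adjusted p = 0.399).

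Six5 (ENSMUSG00000040841.5, chromosome 7, 19094594 to 19098549), whose human counterpart lies beside the myotonic dystrophy kinase gene, differed the other way. Its level was 6.0 and 5.56 RPKM in the controls and 3.97 and 3.50 RPKM in the libraries labelled Six2, from 738, 664, 565 and 815 reads. The 4 libraries again separated by group. Means were 5.78 ± 0.313 and 3.74 ± 0.328 RPKM (SD, n = 2 per group), a log2 difference of -0.52 (SE 0.12, limma-trend adjusted p = 0.172).

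The ratio of Six4 to Six5 RPKM, which no scaling of a library can move, was 0.614 and 0.849 in the control libraries and 1.71 and 2.20 in those labelled Six2. Both libraries labelled Six2 had the higher ratio. Which gene is the more abundant depends on the gene lengths, 5572 bases for Six4 in the deposited RPKM and 10855 bases in GENCODE M21. With GENCODE lengths the ratio was 0.332 and 0.459 in the controls and 0.927 and 1.19 in the libraries labelled Six2, so Six4 exceeded Six5 in only 1 of the latter. This ratio and the rescaling were chosen after the values were seen. With 2 libraries against 2, an exact two-sided permutation test cannot give less than 0.333, the value it gave.

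Eya1 (ENSMUSG00000025932.14, chromosome 1, 14168954 to 14310235), the EYA gene of the fetal kidney and ear, was the least abundant of the 5, with 0.366% of the genes tested at a lower mean RPKM. It had 29 and 60 reads in the controls, or 0.155 and 0.33 RPKM, and 333 and 528 reads, or 1.54 and 1.49 RPKM, in the libraries labelled Six2. The libraries labelled Six2 were nearly equal, whereas the exact Poisson 95% intervals of the controls, 0.104 to 0.222 and 0.252 to 0.424 RPKM, did not overlap each other. The ratio of read rates was 6.26, with an exact 95% interval of 5.02 to 7.87 that covers counting error only. Its log2(RPKM + 1) difference was 1.02 (SE 0.14, limma-trend adjusted p = 0.105). For so low a gene the pseudocount sets the size: the difference was 2.29 with a pseudocount of 0.1 (adjusted p = 0.127) and 2.73 with voom (adjusted p = 0.091).

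The cofactor gene Eya2 (ENSMUSG00000017897.18, chromosome 2, 165595032 to 165771727) was at 12.2 and 7.83 RPKM in control replicates 1 and 2 and at 4.70 and 3.43 RPKM in Six2 replicates 1 and 2. Reads numbered 1451, 905, 647 and 772. The lower control exceeded the higher library labelled Six2. Group means were 10.0 ± 3.09 and 4.07 ± 0.896 RPKM (SD, n = 2 per group), and the log2 difference was -1.10 (SE 0.25, limma-trend adjusted p = 0.172). The control libraries were far apart, and the difference was -0.81 without control replicate 1 and -1.39 without control replicate 2.

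Eya3 (ENSMUSG00000028886.15, chromosome 4, 132638987 to 132724765), whose protein acts on histone H2AX after DNA damage, was at 11.3 and 14.4 RPKM in the controls and 9.80 and 14.0 RPKM in the libraries labelled Six2. The groups overlapped, and within each group replicate 2 was the higher library. The log2 difference was -0.11 (SE 0.22, limma-trend adjusted p = 0.837), and it turned to 0.05 without control replicate 2 and 0.12 without Six2 replicate 1.

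Eya4 (ENSMUSG00000010461.15, chromosome 10, 23102963 to 23350786), known from the inner ear and heart, had 1 read in control replicate 2 and 0 in the other libraries. A count of 3 reads would be 0.017 RPKM in control replicate 1, 0.0147 in Six2 replicate 1 and 0.00898 in Six2 replicate 2. The corepressor gene Dach1 (ENSMUSG00000055639.16, chromosome 14, 97786853 to 98169765) had 2, 3, 1 and 2 reads, at most 0.0131 RPKM. Its ratio of read rates was 0.388, with a counting interval of 0.0603 to 1.99, so no difference was detectable at this depth. Its paralog Dach2 had 1 read in Six2 replicate 1 only, and Six3 and Six6 had 0 reads in each library.

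In the control group the 5 genes ranked Eya3, Eya2, Six5, Six4 and Eya1 by mean RPKM. Eya3 and Eya2 overlapped there, and the next neighbours in the order did not. In the libraries labelled Six2 the order was Eya3, Six4, Eya2, Six5 and Eya1, with Eya2 and Six5 overlapping. With GENCODE lengths the control order was the same, while Eya2, Six4 and Six5 overlapped in those labelled Six2, at means of 3.79, 3.72 and 3.54 RPKM. The size of the 5 log2 differences can be read against all genes tested: 98.3% had a smaller absolute difference than Eya2, 97.8% than Eya1, 94.4% than Six4, 90.01% than Six5 and 37.4% than Eya3. The place of Eya1 in this order lends no support, since it entered the test only through the libraries labelled Six2.

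**Figure D2:**
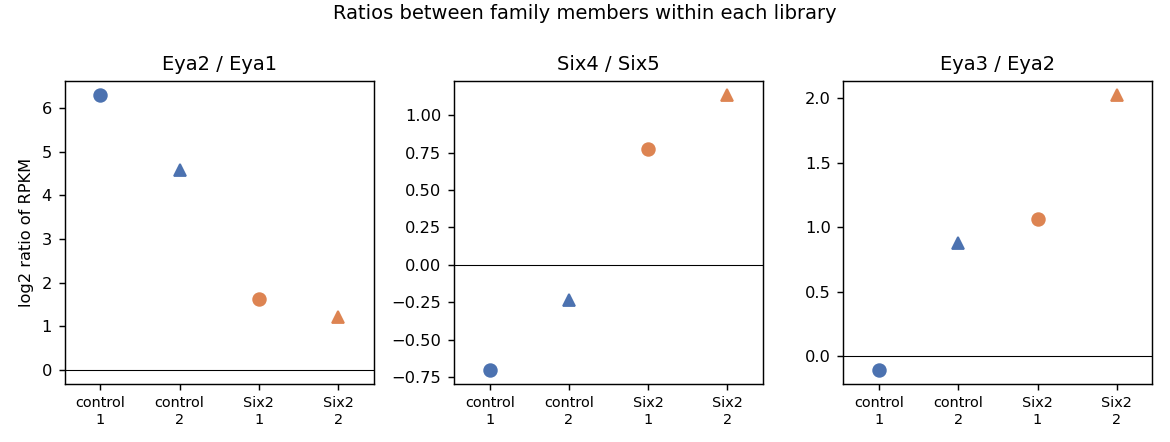
Log2 ratio of RPKM between pairs of genes within each library (no pseudocount), blue for control and orange for the libraries labelled Six2, circles for replicate 1 and triangles for replicate 2. With the deposited lengths Six4 over Six5 lies below 0 in both controls and above 0 in both other libraries (with GENCODE lengths in 1 of these), and Eya2 over Eya1 runs from 78.8 as a plain ratio in control replicate 1 to 2.30 in Six2 replicate 2. Eya1 entered the test only through the libraries labelled Six2, so the ratio with Eya1 lends no support.

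The EYA paralogs share their phosphatase domain and can each serve as the partner of a SIX-family protein. Eya2 exceeded Eya1 in RPKM by 78.8 and 23.8 times in the control libraries and by 3.06 and 2.30 times in those labelled Six2. With a pseudocount of 1 the log2 ratio was 3.12 on average in control libraries and 1.00 in those labelled Six2, a difference of -2.12 (exact two-sided permutation p = 0.333, the smallest that 2 against 2 can give). Eya1 contributed 0.654% and 1.46% of the summed EYA RPKM in the controls and 9.57% and 7.87% in the libraries labelled Six2. The share of Eya2 was 51.5% and 34.7% in the controls and 29.3% and 18.1% in the others. Eya3 supplied 47.8% and 63.8% in the controls and 61.1% and 74.0% in the libraries labelled Six2, ranges that overlap. With GENCODE lengths the share of Eya1 was 0.394% and 0.884% in the controls and 5.99% and 4.90% in the libraries labelled Six2. Because Eya1 entered the test only through the libraries labelled Six2, its ratio to Eya2 and its shares lend no support. The summed level was 23.7 and 22.6 RPKM in the controls and 16.0 and 18.9 RPKM in the libraries labelled Six2.

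**Figure D3:**
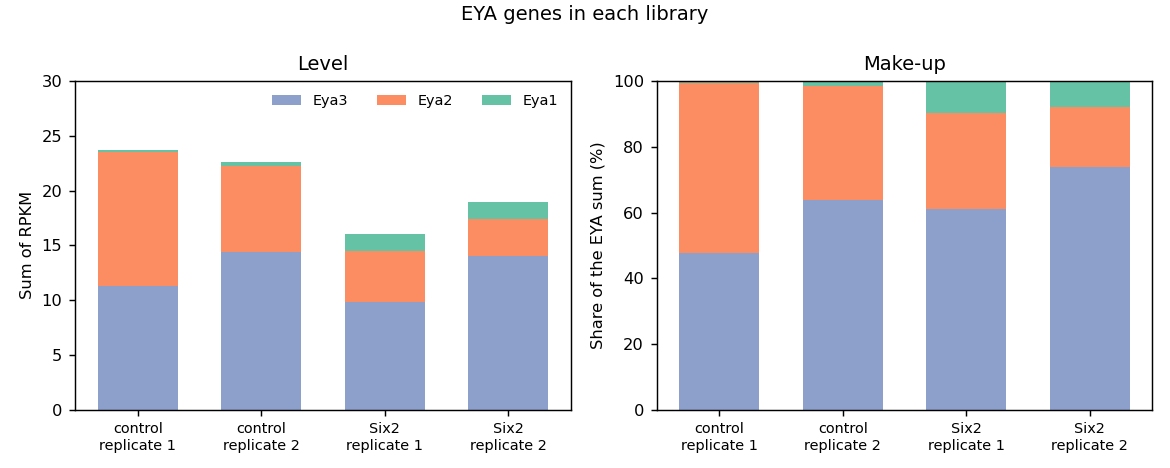
Stacked bars of Eya3, Eya2 and Eya1 in each library, as summed RPKM (left) and as percent of the sum (right); Eya4 is too low to draw. The Eya1 segment is 0.654% and 1.46% of the bar in the controls and 9.57% and 7.87% in the libraries labelled Six2. Eya1 entered the test only through the latter, so its segment lends no support.

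Part of the spread ran along the replicate number. Replicate 2 differed from replicate 1 in the same direction in both groups for 4 of the 5 tested genes. How often this holds over all genes tested was not counted. Across them, replicate 2 minus replicate 1 correlated between the groups at r = 0.818, so the count is not read as particular to these genes. For Eya2 the step from replicate 1 to replicate 2 was -0.58 in the controls and -0.36 in the libraries labelled Six2 on the log2(RPKM + 1) scale. The same step for Eya3 was 0.32 and 0.47, larger than its group difference of -0.11. For Six4 it was 0.29 and 0.16, and for Six5 -0.09 and -0.14. Eya1 was the exception, at 0.20 and -0.03. Taken between libraries of the same number, the group difference was -1.21 and -0.99 for Eya2, 0.73 and 0.61 for Six4, -0.49 and -0.54 for Six5 and 1.13 and 0.91 for Eya1.

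The genomic surroundings of several of these genes differed between the groups as well. Tested genes of chromosome 1, which holds Eya1, had a median log2 difference of 0.32, those of chromosome 12 (Six4) 0.25 and those of chromosome 17 (Six2) -0.21. Such medians were not limited to chromosomes of the family: among those without any of the 8 genes they ran from -0.22 (chromosome 16) to 0.21 (chromosome 3). The medians lay between -0.06 and 0.05 for the chromosomes of Six5, Eya2, Eya3, Eya4 and Dach1. Of the 10 annotated genes nearest to each, 5 on either side, between 0 and 6 were tested, so the 10 nearest tested genes outside the family were taken instead, a choice made after this was seen. These can lie far off, spanning 10037987 to 16619489 on chromosome 1 for Eya1 and 79459937 to 99315036 on chromosome 14 for Dach1. None of them, for any of the 8 genes, was called with limma-trend at an adjusted p under 0.05. Around Eya1 all 10 lay above 0 (median 0.33), 8 of them with groups that did not overlap, against 21.9% of all genes tested that were higher without overlap. They included the ribosomal protein gene Rpl7 (949.6 and 1012 RPKM in the controls, 1224 and 1338 RPKM in the libraries labelled Six2). The largest difference among them was 0.56, of the nuclear receptor coactivator gene Ncoa2.

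Around Six4, 8 of 10 lay above 0, with a median of 0.15 beside 0.25 for chromosome 12. Of the 10, 4 were higher without overlap, against 21.9% of all genes tested. The largest difference was 0.62, of the protein kinase C gene Prkch. Around Six2, 9 of 10 lay below 0 (median -0.32), 7 without overlap, against 25.5% of all genes tested that were lower without overlap. The surroundings of Six5 and Eya2 had medians of -0.04 and 0.09. Dmpk, the kinase gene next to Six5, was at 48.2 and 25.9 RPKM in the controls and 50.1 and 30.5 RPKM in the libraries labelled Six2 (log2 difference 0.14, SE 0.39). The differences of Six4 and Eya1 were above, and those of Six5 and Eya2 below, each of their own 10 neighbours. For Eya1 this lends no support, since it entered the test only through the libraries labelled Six2. With chromosome medians removed, the difference was 0.70 for Eya1, -0.48 for Six5 and -1.06 for Eya2. The part of these regional differences in those of the genes themselves was not tested beyond that.

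**Figure D4:**
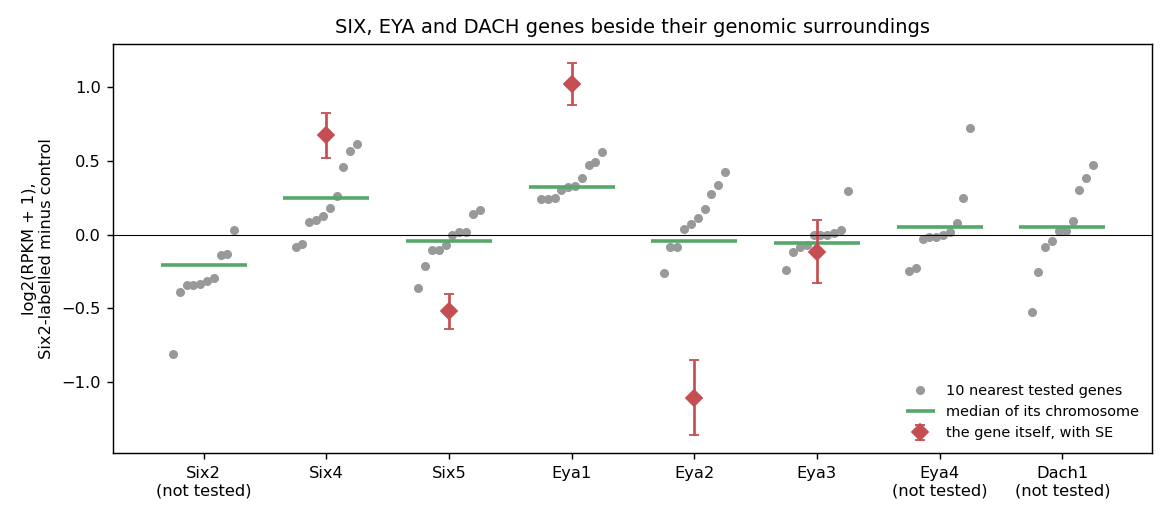
Difference in log2(RPKM + 1), libraries labelled Six2 minus control, for each gene (red diamond, with SE), its 10 nearest tested genes (grey, sorted by value) and the median of its chromosome (green line). All 10 neighbours of Eya1 lie above 0 and 9 of 10 neighbours of Six2 below it. The diamonds of Six4, Six5, Eya1 and Eya2 lie outside the range of their own neighbours. Eya1 entered the test only through the libraries labelled Six2, so the place of its diamond lends no support.

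Other genes of the network were taken from lists, and none was called over all genes tested with limma-trend. Of 11 PAX and SALL genes, transcription factors that act with SIX-family and EYA proteins in organ rudiments, only Sall2 was tested. It was at 1.75 and 1.83 RPKM in the controls and 3.11 and 3.30 RPKM in the libraries labelled Six2, without overlap (log2 difference 0.59, SE 0.12, adjusted p = 0.147). Pax2, a kidney partner, had 5, 2, 5 and 0 reads, and the others had at most 1 read in any library.

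All 16 corepressor and coactivator genes were tested, and 2 of them, Tle1 and Crebbp, had an unadjusted p under 0.05, or 12.5%, below the 17.0% of all genes tested. The groups did not overlap for 7, of which 1 was higher and 6 lower, a share of 43.8% beside 47.4% of all genes tested. By direction, 37.5% were lower without overlap, beside 25.5% of all genes tested, and 1 of 16 was higher, beside 21.9%. Tle1, a Groucho corepressor that SIX-family proteins recruit, was at 7.91 and 7.25 RPKM in the controls and 5.84 and 5.71 RPKM in the libraries labelled Six2 (log2 difference -0.34, adjusted p = 0.24). The acetyltransferase gene Crebbp differed by -0.33 (adjusted p = 0.266) and Pygo2 by 0.35 (adjusted p = 0.406). The list's median was -0.04, beside -0.01 over all genes tested.

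Of 24 candidate targets of SIX-family proteins 12 were tested, and 4 had an unadjusted p under 0.05, all lower and all without overlap. That is 33.3% of the 12, beside 17.0% of all genes tested at this p, 47.4% without overlap and 25.5% lower without overlap. The lymphangiogenic factor gene Vegfc was at 10.7 and 7.34 RPKM in the controls and 3.79 and 3.27 RPKM in the libraries labelled Six2 (log2 difference -1.13, SE 0.20, adjusted p = 0.14). The receptor gene Tgfbr2 was at 30.9 and 26.1 RPKM and 14.9 and 12.05 RPKM in the same order (log2 difference -1.03, SE 0.15, adjusted p = 0.113). Cdh1, which encodes E-cadherin, differed by -3.40 (SE 0.27, adjusted p = 0.0592). The membrane linker gene Ezr was the other one, with a difference of -0.44 (adjusted p = 0.235). Ccnd1 differed by 0.009 (adjusted p = 0.979), and the myogenic targets Myog and Myod1 and the kidney target Gdnf had 0 reads in every library. The median of the 12 was -0.09.

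Of 11 genes for EYA phosphatase substrates and partners in the DNA damage response, 9 were tested. H2afx, which encodes the histone that Eya3 protein dephosphorylates, was at 83.6 and 109.6 RPKM in the controls and 86.2 and 105 RPKM in the libraries labelled Six2. The groups overlapped. Over the 9, groups did not overlap for 2 higher and 1 lower, a share of 33.3% beside 47.4% of all genes tested. The higher ones were Fzr1, an activator of the anaphase-promoting complex, at 0.36 (SE 0.11, limma-trend adjusted p = 0.234), and Smc1a at 0.10 (adjusted p = 0.646). The lower one was Baz1b, at -0.15 (limma-trend adjusted p = 0.575). Among 8 other phosphatase genes, most of the same haloacid dehalogenase fold as EYA, Phospho1 was at 13.8 and 10.5 RPKM in the controls and 7.50 and 5.54 RPKM in the libraries labelled Six2 (log2 difference -0.81, SE 0.20, adjusted p = 0.184). Ctdsp1 differed by 0.32 (limma-trend adjusted p = 0.214) and Phospho2 by -0.16 (adjusted p = 0.52), and the list's median was -0.04.

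Genes with the most similar profile were sought by Euclidean distance between log2(RPKM + 1) values of the 4 libraries, each centred on the gene's own mean. Nearest to Eya1 were Acsl1, Sema4c and Msrb2, at distances of 0.10, 0.12 and 0.13. Eya2 was closest to Gpsm3, Tmem100 and Acap1 (0.08, 0.09 and 0.10), Six4 to Nuf2, Ccdc115 and Timm17a (0.04, 0.05 and 0.05) and Six5 to Vps37c, Nthl1 and Cadm1 (0.03, 0.05 and 0.05). Eya3 was nearest to Rif1, Tmem129 and Cpox (0.02, 0.04 and 0.04). With 4 libraries many genes share a profile, and these names describe likeness only.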

How the data were processed

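The authors deposited RPKM values for 24421 genes in 4 libraries, 2 per group by their titles. Per the labels' protocols, the TruSeq stranded mRNA kit was used. Named in the submitters' processing notes are HTSeq 0.8.0, TopHat2 2.1.1 with Bowtie2, Picard 2.9.4, SAMtools 1.5 and build GRCm38 (mm10). Neither annotation, gene lengths nor strand setting is given in the sources used here; reads from overlapping or antisense genes cannot be separated; 0 genes of the table overlap the 8 in GENCODE M21.

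Read totals and read numbers were recovered from the RPKM steps. Read numbers came out whole, within 0.0001, for each of the 14459 genes detected in at least 3 libraries. A divisor shared by reads and length would go unseen. Genes detected in fewer libraries, such as Six2 and Eya4, are outside this check, so their read numbers and limits at 0 reads are less certain. Limma 3.58.1 in R 4.3.3 fitted log2(RPKM + 1) on group with a variance trend for 10654 genes (at least 1 RPKM in 2 libraries; two-sided, Benjamini-Hochberg, threshold 0.05). The script was tested on simulated data. This scale understates low genes. Intervals and limits at 0 reads cover counting error only. Positions come from GENCODE M21 (GRCm38), sequences from RefSeq (GRCm38.p6). The exon length in GENCODE differed from the length in the RPKM (Six4 10855 and 5572 bases), so gene models differ, and orders between genes were also taken with GENCODE lengths.

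The 8 genes and all lists were chosen with earlier results of these data known. Named were the 8 genes, from each list called genes and then up to 3 with the largest difference without overlap, and for each tested gene the 3 nearest profiles, gene models and clones passed over. Other names, such as Ezr, the neighbours and genes at 0, were chosen after their values were seen. Not every gene of the families and lists is reported here. Alternatives were other filters, a pseudocount, scaling factors, voom, chromosome medians, the replicate block and leaving out each library.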

Additional observations from a re-analysis of the deposited data

How the results depend on the processing

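Without the replicate block, the 5 tested genes had limma adjusted p-values between 0.0766 and 0.952 over the alternatives run, and none was called in any of them. Six4, Eya1, Six5 and Eya2 kept their direction in each. For Eya1 this and the values that follow lend no support, since it passed 1 RPKM only in the libraries labelled Six2. Leaving out 1 library gave log2 differences of 0.53 to 0.82 for Six4, -0.59 to -0.45 for Six5, 0.92 to 1.12 for Eya1, -1.39 to -0.81 for Eya2 and -0.35 to 0.12 for Eya3, whose sign is therefore not settled. For Eya2 over Eya1 it gave log2 differences of -2.51 to -1.73, and a pseudocount of 0.1 gave -3.55, since Eya1 lies below 1 RPKM in the controls. With GENCODE exon lengths, an alternative chosen after seeing the data, it was -1.79. The count of all genes called was 12, and it was 0 with no filter on low values (2503 at an unadjusted p under 0.05), 33 with a filter of 1 CPM in 2 libraries, 28 with relative log expression factors and 11 to 68 without 1 library; the cause was not tested.

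The labels do not say that a replicate number marks a shared batch, and with 2 pairs the numbers could not be shown to pair the samples. Across genes, replicate 2 minus replicate 1 correlated between the groups at r = 0.818. With the replicate number as a block, 4639 of the 10654 genes were called (43.5%), among them 4 of the 5 tested here; 1 of the 4 is Eya1, which entered the test only through the libraries labelled Six2 and lends the count no support. Under the block, limma gave Six4 0.67 (adjusted p = 0.000481), Six5 -0.52 (adjusted p = 0.00141), Eya1 1.02 (adjusted p = 0.000558), Eya2 -1.10 (adjusted p = 9.37e-05) and Eya3 -0.11 (adjusted p = 0.187).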

Other observations

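Among the candidate targets of SIX-family proteins below the filter, Igf2, which encodes a fetal growth factor, had 116 and 47 reads in the control libraries (1.27 and 0.53 RPKM) and 4 reads in each library labelled Six2 (0.0378 and 0.0232 RPKM). Cited1, a marker of the earliest nephron progenitors, had 5 and 2 reads in the controls and 17 and 19 reads in the libraries labelled Six2, at most 0.224 RPKM. Both were named after their values were seen and neither was tested.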
